A study of Homo sapiens with 16 samples.

Results

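Autophagy encloses proteins and organelles in a growing membrane sac and delivers them to the lysosome, where acid hydrolases break them down. Cargo receptors such as SQSTM1 tie ubiquitin-marked cargo to LC3 and GABARAP proteins, which are themselves coupled to the lipid of the sac by the ATG enzymes. The transcription factors TFEB and TFE3 switch on many lysosomal and autophagy genes through a DNA element called CLEAR, which contains an E-box. In the liver this pathway clears damaged mitochondria, aggregated protein and stored lipid and glycogen, and inherited defects in lysosomal enzymes cause storage diseases. The 50 genes described here were taken from a list by gene symbol and cover cargo receptors, LC3 and GABARAP proteins, initiation complexes, ATG enzymes, TFE factors, and lysosomal membrane proteins and hydrolases. Of these, 49 had at least 1 probe set named for them alone, 92 probe sets in all among 22283. VPS18, a tethering subunit, was not analysed here. In all, 47 members passed the filter on dim signals, among 8109 genes tested and 11963 genes with a probe set. ULK2, a kinase related to ULK1, and MCOLN1, a calcium channel of the lysosome, had mean signals of 182 and 116, below the filter of 208, and were not tested.

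The samples were 16 Affymetrix arrays of HepG2, an established human liver tumour cell line, with 4 arrays in each of 4 groups. The groups were GPI-PLD adenovirus for 12 h, GPI-PLD adenovirus for 6 h, LacZ adenovirus for 12 h and LacZ adenovirus for 6 h. GPI-PLD is a phospholipase that releases proteins from their glycolipid anchor, and LacZ, the beta-galactosidase gene, served as the control insert. All cells therefore carried an adenovirus, and no uninfected or zero-time array was among those used, so time in culture and time after infection cannot be told apart. The material for each array was made from 10 microgram of total RNA. No label states whether replicate arrays had their own culture dishes. The p-values thus reflect only the variation among these arrays, which may be technical.

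Array medians ran from 304.5 to 377.6, and mean correlations within a group ran from 0.941 to 0.944 for GPI-PLD at 12 h, 0.961 to 0.965 for GPI-PLD at 6 h, 0.96 for LacZ at 12 h and 0.953 to 0.958 for LacZ at 6 h. All 10 hepatocyte markers passed the filter, with summed signals of 458360 to 519920 in GPI-PLD cells at 12 h, 443050 to 490400 in GPI-PLD cells at 6 h, 446910 to 489180 in LacZ cells at 12 h and 422830 to 469250 in LacZ cells at 6 h. Of the other cell types' markers, 1 of 4 endothelial, 2 of 6 measured leukocyte, 4 of 6 fibroblast and 3 of 4 cholangiocyte genes passed the filter, and the defining leukocyte gene PTPRC averaged 111. Summed leukocyte marker signals ranged from 9265 to 13027 in GPI-PLD cells at 12 h, 8599.9 to 11332 in GPI-PLD cells at 6 h, 10150 to 13871 in LacZ cells at 12 h and 6045 to 12097 in LacZ cells at 6 h. Most of that sum was LYZ, which averaged 9632. Summed cholangiocyte marker signals were 12363 to 18844 and 16479 to 19610.0 for GPI-PLD at 12 h and 6 h, and 15378 to 18712 and 15053 to 18671 for LacZ at 12 h and 6 h. All arrays were of the HepG2 line, so these sums are not a measure of other cell types. What gave rise to the marker signals was not tested. GPLD1, which encodes GPI-PLD, read 328 ± 46.9 with GPI-PLD virus and 319 ± 136 with LacZ virus at 12 h on its brightest probe set (SD, n = 4 each). The 6 h values were 284 ± 138 with GPI-PLD virus and 260.5 ± 37.7 with LacZ virus. The log2 differences were 0.12 ± 0.32 at 12 h and 0.02 ± 0.32 at 6 h (SE), so no rise beyond the error was seen. This probe set thus does not show expression of the insert, and the reason was not tested. The labels do not say which part of the transcript the virus carried.

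Promoter sequences of 4 members, chosen as examples, are printed here. SQSTM1 and MAP1LC3B rose with time, and LAMP1 and CLN3 carry the CLEAR element. Whether these motifs go with the time differences was not tested. The 300 bases from 250 before to 50 after the annotated start were available for 40 of the 50 members from RefSeq on GRCh38.p14. RB1CC1 and CTSB, also called with time, were not among the 40. Capitals mark the E-box CACGTG, the CLEAR core TCACGTGA, which contains the E-box, the amino acid response core TGATGNAA and the antioxidant response core TGACNNNGC, each searched on both strands. SQSTM1 (chr5:179806143-179806442, plus strand) and MAP1LC3B (chr16:87392086-87392385, plus strand) encode a receptor and its LC3 partner. LAMP1 (chr13:113296989-113297288, plus strand) and CLN3 (chr16:28492025-28492324, minus strand) encode lysosomal membrane proteins.
SQSTM1: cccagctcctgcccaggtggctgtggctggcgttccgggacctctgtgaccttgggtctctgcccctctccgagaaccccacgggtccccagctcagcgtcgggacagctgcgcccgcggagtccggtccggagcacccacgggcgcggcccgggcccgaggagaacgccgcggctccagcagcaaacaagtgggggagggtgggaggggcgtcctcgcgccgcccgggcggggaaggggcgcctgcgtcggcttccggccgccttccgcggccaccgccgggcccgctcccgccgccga
MAP1LC3B: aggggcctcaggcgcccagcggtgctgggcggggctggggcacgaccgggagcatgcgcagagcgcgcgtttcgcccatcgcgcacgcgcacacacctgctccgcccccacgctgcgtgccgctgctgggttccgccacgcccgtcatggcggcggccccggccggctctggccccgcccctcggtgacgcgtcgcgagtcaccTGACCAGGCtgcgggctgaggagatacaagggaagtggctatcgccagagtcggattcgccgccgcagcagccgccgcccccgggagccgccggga
LAMP1: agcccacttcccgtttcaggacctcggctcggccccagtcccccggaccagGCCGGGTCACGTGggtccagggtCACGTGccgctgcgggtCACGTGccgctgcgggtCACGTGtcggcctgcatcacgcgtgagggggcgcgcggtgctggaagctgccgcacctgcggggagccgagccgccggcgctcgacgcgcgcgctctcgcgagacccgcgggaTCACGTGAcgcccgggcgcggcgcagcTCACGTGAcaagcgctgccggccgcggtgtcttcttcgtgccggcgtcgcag
CLN3: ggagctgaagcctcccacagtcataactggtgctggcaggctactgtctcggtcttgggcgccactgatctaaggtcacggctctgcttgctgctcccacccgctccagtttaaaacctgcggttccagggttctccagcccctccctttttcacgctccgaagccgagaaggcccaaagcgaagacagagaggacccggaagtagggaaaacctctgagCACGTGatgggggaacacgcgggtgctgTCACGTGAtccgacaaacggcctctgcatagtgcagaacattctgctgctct
LAMP1 held 6 E-boxes, 2 of them within CLEAR cores, and an antioxidant core that overlaps an E-box. CLN3 held 2 E-boxes, 1 of them within a CLEAR core. MAP1LC3B held 1 antioxidant core and no E-box, and SQSTM1 held none of the 4 motifs in this window.

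The E-box lay in 9 of 40 member promoters (22.5%), against 699 of 6711 promoters of tested genes (10.4%) and 2548 of all 35116 promoters (7.26%). The CLEAR core lay in 6 of 40 member promoters (15%), against 140 of 6711 (2.09%) and 344 of 35116 (0.98%). Among 102 promoters of other autophagy and lysosome genes, 22 held the E-box (21.6%) and 10 the CLEAR core (9.8%). CLEAR is already known as an element of lysosomal and autophagy genes, as said above. Its higher share in these lists is thus no independent result. The 6 members with a CLEAR core were ATG3, an LC3-coupling enzyme, the membrane proteins LAMP1, MCOLN1 and CLN3, the protease CTSA and the glycogen-degrading enzyme GAA. By role, 3 of 4 promoters of lysosomal membrane proteins held an E-box, against 0 of 5 promoters of cargo receptors and 0 of 4 of LC3 and GABARAP proteins. The antioxidant core lay in 10 of 40 member promoters (25%), against 18.6% of the other autophagy and lysosome genes, 15.9% of tested genes and 13.3% of all promoters, and 5 of the 10 belonged to the 6 lysosomal proteases with a promoter. The amino acid response core lay in 0 of 40 member promoters, against 2.94% of the other autophagy and lysosome genes, 1.82% of tested genes and 3.62% of all promoters. A match is a description of these letters and not a binding site, and the lack of one says nothing of the factor.

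The first question was what changed between 6 h and 12 h. Messages for the receptor SQSTM1, the receptor TAX1BP1, the LC3 protein MAP1LC3B and the initiation scaffold RB1CC1 rose in cells with either virus, by 1.33-fold to 1.97-fold on the scale of signal + 63. In GPI-PLD cells the receptor CALCOCO2 and the protease CTSB rose as well, and the LC3 relative GABARAPL2 fell. Limma with Benjamini-Hochberg adjustment over all genes called 7 of 47 members in GPI-PLD cells (14.9%), 6 higher and 1 lower, where it called 9.64% of all tested genes, 4.59% higher and 5.06% lower. In LacZ cells it called 4 of 47 members (8.51%), all higher, where it called 6.89% of all tested genes, 3.64% higher and 3.26% lower. All 4 members called in LacZ cells were also called in GPI-PLD cells, which makes 4 of 7 there. Over all tested genes, 339 were called in both viruses, 60.6% of the 559 LacZ calls and 43.4% of the 782 GPI-PLD calls, so shared calls were common outside the members too. The arrays of the 2 viruses are separate, so the time differences themselves share no array. The tests came from a single fit of all groups, however, and share its estimate of the spread, so the calls are not independent. For example, the RB1CC1 call in LacZ cells was lost without GPI-PLD 6 h replicate 2. In a bulk sample, fewer cells with a message and less message per cell cannot be told apart.

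**Figure D1:**
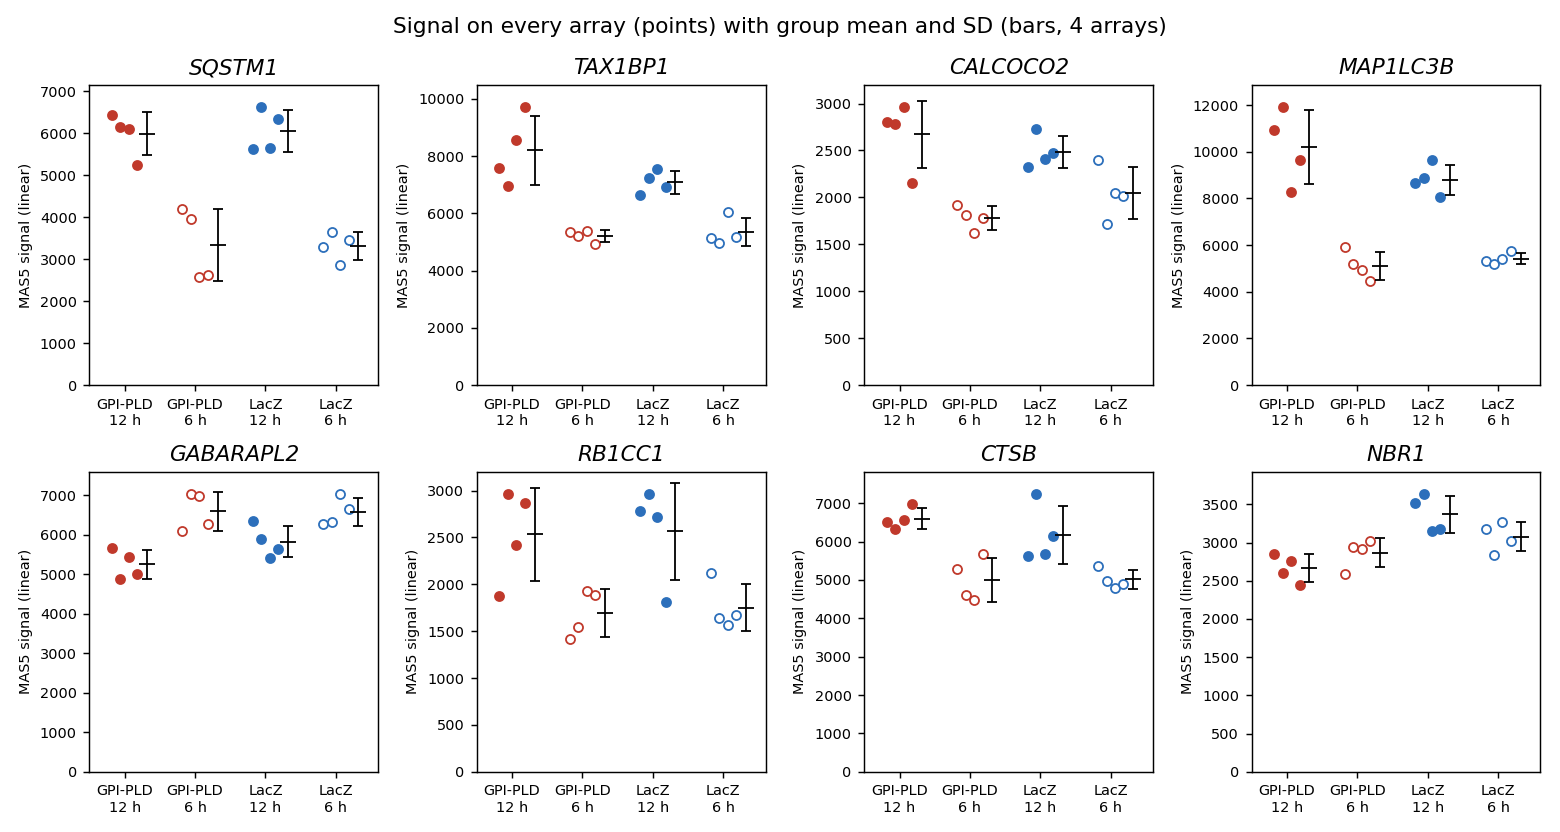
Signal of the 7 members called with time, and of NBR1, on every array (points, MAS5 signal on a linear axis from 0) with group mean and SD at the right of each group. Groups run from GPI-PLD 12 h on the left to LacZ 6 h on the right, and filled points are 12 h. The 12 h arrays of SQSTM1 and MAP1LC3B all lie above the 6 h arrays of the same virus, and for NBR1 the GPI-PLD 12 h arrays lie below the LacZ 12 h arrays.

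SQSTM1, also called p62, binds ubiquitin chains and LC3 and is itself degraded by autophagy. In GPI-PLD cells its signal was 6439.8, 6159.8, 6116 and 5251 at 12 h, against 4197, 3965, 2578 and 2615 at 6 h. In LacZ cells it was 5627, 6626, 5646 and 6339 at 12 h, against 3293, 3642, 2870.3 and 3467 at 6 h. All 8 arrays at 12 h lay above all 8 arrays at 6 h, and among the GPI-PLD arrays at 6 h replicates 1 and 2 stood above replicates 3 and 4. SQSTM1 rose by 0.86 ± 0.13 on the log2 scale (SE) in GPI-PLD cells, 1.82-fold, with a limma adjusted p of 8.7e-05. In LacZ cells SQSTM1 rose by 0.86 ± 0.13, 1.81-fold, with an adjusted p of 0.000106. The difference between the viruses was 0.00 ± 0.19, with an adjusted p of 0.997.

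TAX1BP1 is a receptor that links ubiquitin and LC3 proteins. GPI-PLD cells gave signals of 7573, 6958, 8580.0 and 9711 at 12 h, against 5345, 5224, 5376 and 4924 at 6 h. LacZ cells gave 6629.6, 7224, 7546 and 6921 at 12 h, against 5147, 4952, 6052 and 5177 at 6 h. The times did not overlap in either virus. TAX1BP1 rose by 0.64 ± 0.09 log2 in GPI-PLD cells (limma adjusted p 6e-05) and by 0.41 ± 0.09 in LacZ cells (0.00744). With the mean of its 3 probe sets both calls were lost, with adjusted p of 0.0992 in GPI-PLD cells and 0.218 in LacZ cells, at the top of a range that began at 1.87e-05 and 0.00374 over the 25 alternatives. The dimmest of the 3 probe sets, with a mean of 336, gave -0.02 ± 0.37 in GPI-PLD cells and 0.14 ± 0.37 in LacZ cells.

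CALCOCO2, also called NDP52, is a receptor for bacteria and damaged mitochondria. With GPI-PLD virus, CALCOCO2 read 2798, 2784, 2961 and 2153 at 12 h, against 1921, 1814, 1618 and 1776 at 6 h. With LacZ virus, CALCOCO2 read 2328, 2723.5, 2406 and 2475 at 12 h, against 2401, 1718, 2049.7 and 2013 at 6 h. The times did not overlap in GPI-PLD cells, while in LacZ cells the highest 6 h array lay above the lowest 12 h array. CALCOCO2 rose by 0.56 ± 0.11 log2 in GPI-PLD cells (limma adjusted p 0.00206) and had a difference of 0.28 ± 0.11 in LacZ cells (0.163). The difference between these time effects was 0.28 ± 0.16 with an adjusted p of 0.71, so the call in 1 virus alone does not show that the viruses differed. The other receptors did not pass with time: OPTN had log2 differences of 0.13 in GPI-PLD cells and 0.31 in LacZ cells, and NBR1 had -0.10 in GPI-PLD cells and 0.13 in LacZ cells. In all, 3 of 5 receptors rose in GPI-PLD cells, where 4.59% of all genes did, and 2 of 5 in LacZ cells, where 3.64% did. No test of this small group was run, and the lists were chosen with earlier results of these data known. Both counts include TAX1BP1, whose calls were lost with its probe sets averaged. Its log2 differences had medians of 0.56 in GPI-PLD cells and 0.31 in LacZ cells.

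MAP1LC3B encodes LC3B, which coats the autophagic membrane and holds the receptors. In GPI-PLD cells its signal was 10939, 11914, 8261 and 9669 at 12 h, against 5910.2, 5179, 4929 and 4477 at 6 h. The LacZ arrays read 8680.2, 8869, 9628 and 8066 at 12 h, against 5331, 5185, 5409 and 5755 at 6 h. Every 12 h array lay above every 6 h array. MAP1LC3B rose by 0.98 ± 0.10 log2 in GPI-PLD cells, 1.97-fold (limma adjusted p 4.6e-07), the largest time difference among the members there. In LacZ cells it rose by 0.69 ± 0.10, 1.62-fold (6.71e-05). A second MAP1LC3B probe set gave 1.28 ± 0.09 in GPI-PLD cells and 1.36 ± 0.09 in LacZ cells in a fit of all 22215 probe sets. These probe sets may also read near-identical copies of the gene.

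GABARAPL2, a relative of LC3 that acts in late sac maturation, was the 1 member that fell. GPI-PLD cells gave signals of 5669, 4882, 5425.5 and 5012 at 12 h, against 6082, 7019, 6990.4 and 6267 at 6 h. In LacZ cells it was 6349.6, 5896.5, 5408 and 5645 at 12 h, against 6258, 6318, 7031 and 6636.5 at 6 h. The times did not overlap in GPI-PLD cells and overlapped in LacZ cells. GABARAPL2 fell by 0.32 ± 0.08 on the log2 scale in GPI-PLD cells, 1.25-fold (limma adjusted p 0.0118), and had a difference of -0.17 ± 0.08 in LacZ cells (0.243). The call was lost without GPI-PLD 6 h replicate 3 (0.0516), against a lowest value of 0.00867 over the 25 alternatives, and the difference between the viruses was -0.15 ± 0.12 (0.786). Among the other members of this family, GABARAP had log2 differences of 0.03 in GPI-PLD cells and 0.01 in LacZ cells, and GABARAPL1 had 0.53 ± 0.30 in GPI-PLD cells (0.304) and 0.44 ± 0.30 in LacZ cells (0.468).

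RB1CC1, also called FIP200, is the scaffold of the ULK1 kinase complex that starts autophagy. With GPI-PLD virus, RB1CC1 read 1874, 2964, 2424 and 2865 at 12 h, against 1411.5, 1546, 1926 and 1887.5 at 6 h. LacZ cells gave 2783.5, 2961, 2719.5 and 1807 at 12 h, against 2118, 1645, 1562 and 1669.8 at 6 h. The times overlapped in both viruses, through replicate 1 of GPI-PLD at 12 h and replicate 4 of LacZ at 12 h. RB1CC1 rose by 0.55 ± 0.16 log2 in GPI-PLD cells (limma adjusted p 0.0255) and by 0.52 ± 0.16 in LacZ cells (0.0449). In LacZ cells the call was lost in 13 of 25 alternatives, with adjusted p from 0.00684 to 0.152. In GPI-PLD cells it was lost in 5 of 25, with adjusted p from 0.00707 to 0.0896, including those without GPI-PLD 6 h replicate 1 or 2 and without GPI-PLD 12 h replicate 2 or 4. The other 5 tested members of the initiation and lipid kinase complexes did not pass. ULK1, the kinase that starts autophagy, had a log2 difference of 0.99 ± 0.46 in LacZ cells (0.23). UVRAG, a partner of BECN1, had 0.39 ± 0.17 in LacZ cells (0.198), and ATG14, which brings the lipid kinase to the sac, had 0.11 in GPI-PLD cells and 0.01 in LacZ cells. BECN1 and PIK3C3, the core of the lipid kinase, had -0.04 and 0.02 in GPI-PLD cells and 0.09 and 0.04 in LacZ cells.

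The proteins that couple LC3 to lipid and enlarge the membrane gave 0 limma calls of 8 tested members in either virus, with 2 at an unadjusted p under 0.05 in GPI-PLD cells and 1 in LacZ cells, and 0 calls from eBayes without trend. Their log2 differences ran from -0.13 for ATG4B, the LC3 protease, to 0.46 in GPI-PLD cells and from -0.09 to 0.39 in LacZ cells, with medians of 0.10 and 0.14. These counts of 8 are near the shares of all genes, which were 9.64% called and 22.8% at an unadjusted p under 0.05 in GPI-PLD cells, and 6.89% and 20.2% in LacZ cells. The nearest to passing was WDR45, a lipid-binding protein of the early sac, in GPI-PLD cells (0.46 ± 0.16, limma adjusted p 0.079). In LacZ cells WDR45 had 0.31 ± 0.16 (0.295), and its 12 h arrays lay above its 6 h arrays in both viruses. ATG5 and ATG12, the conjugate that acts as the LC3 ligase, had 0.06 and 0.14 in GPI-PLD cells and -0.09 and 0.27 in LacZ cells. ATG3 and ATG7, the enzymes upstream of it, had -0.06 and 0.30 in GPI-PLD cells and 0.08 and 0.00 in LacZ cells.

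The factors TFEB and TFE3 had dim probe sets with wide spread. With GPI-PLD virus TFEB read 775, 90.9, 390.0 and 127 at 12 h and 85, 181, 92.1 and 127 at 6 h, and with LacZ virus it read 384, 169, 692 and 417 at 12 h and 195, 279.7, 94.1 and 118 at 6 h. With GPI-PLD virus TFE3 read 589, 696, 469.5 and 521 at 12 h and 317, 459, 312 and 486 at 6 h, and with LacZ virus it read 646, 458, 618 and 613 at 12 h and 657, 301, 219 and 132 at 6 h. The times overlapped for TFEB in both viruses, and for TFE3 as well. Limma called 0 of these 2 genes, where it called 9.64% of all genes in GPI-PLD cells and 6.89% in LacZ cells. At an unadjusted p under 0.05 there were 0 in GPI-PLD cells (with 22.8% of all genes) and 1, TFE3, in LacZ cells (with 20.2%). Counts this small do not set them apart from all genes. TFEB had log2 differences of 0.85 ± 0.47 in GPI-PLD cells and 0.98 ± 0.47 in LacZ cells, with limma adjusted p of 0.299 and 0.25. TFE3 had 0.48 ± 0.29 and 0.89 ± 0.29, with adjusted p of 0.336 and 0.0639. The second probe set of TFEB, itself below the filter, gave -0.54 in GPI-PLD cells and 0.31 in LacZ cells, so the direction in GPI-PLD cells was not the same on both.

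Of the 22 tested lysosomal members, 1 passed in GPI-PLD cells (4.55%, with 9.64% of all genes) and 0 in LacZ cells (with 6.89%), and counts this small do not set them apart from all genes. Among 8 proteases, CTSB, a cysteine protease, was the 1 member that passed, in GPI-PLD cells. There its signal was 6522, 6319, 6567 and 6974.5 at 12 h, against 5277, 4603, 4467 and 5676 at 6 h. With LacZ virus, CTSB read 5629, 7244, 5687 and 6144 at 12 h, against 5375, 4974, 4803 and 4907 at 6 h. The 12 h arrays lay above the 6 h arrays in both viruses. CTSB rose by 0.40 ± 0.09 log2 in GPI-PLD cells, 1.32-fold (limma adjusted p 0.00622), and had a difference of 0.29 ± 0.09 in LacZ cells (0.0594). With the mean of its 4 probe sets the call was lost (0.209, against a lowest value of 0.00248 over the 25 alternatives), and the dimmest of them gave -0.09 ± 0.17 in GPI-PLD cells. CTSD and CTSL, an aspartic and a cysteine protease, had -0.02 and 0.13 in GPI-PLD cells and 0.08 and -0.01 in LacZ cells, and the median of the 8 was -0.03 in GPI-PLD cells and 0.02 in LacZ cells. CTSC, a dipeptide-releasing protease, had -0.26 ± 0.14 in GPI-PLD cells (0.265) and -0.30 ± 0.14 in LacZ cells (0.223). CTSZ had 0.46 in GPI-PLD cells and -0.61 in LacZ cells on its dim probe set, and CTSA, CTSH and LGMN lay between -0.12 and 0.10.

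Of the 10 tested glycosidases, lipid hydrolases and sphingolipid-degrading members, 0 passed limma in either virus, with 3 at an unadjusted p under 0.05 in GPI-PLD cells (with 22.8% of all genes) and 0 in LacZ cells (with 20.2%), and medians of 0.09 in GPI-PLD cells and 0.06 in LacZ cells. The nearest were ASAH1, the acid ceramidase (0.32 ± 0.12, limma adjusted p 0.0969), and GLA, an alpha-galactosidase (0.28 ± 0.11, 0.117), both in GPI-PLD cells. For ASAH1 the highest array there was replicate 4 at 12 h, with 12733 against 7349 to 9265 for the other three, and 2 other ASAH1 probe sets above the filter gave -0.21 and -0.16. LIPA, which hydrolyses cholesteryl esters in the lysosome, had 0.10 in GPI-PLD cells and -0.01 in LacZ cells, and HEXA, a ganglioside-degrading enzyme, had 0.29 ± 0.12 in GPI-PLD cells (0.146). ARSA, a sulfatase, had the highest value in LacZ cells (0.40), and GUSB, a glucuronidase, had the lowest in GPI-PLD cells (-0.20). The 4 tested lysosomal membrane proteins also gave 0 calls, with 0 at an unadjusted p under 0.05 in GPI-PLD cells (22.8% of all genes) and 2, LAMP1 and CLN3, in LacZ cells (20.2%), and medians of -0.10 in GPI-PLD cells and -0.01 in LacZ cells. LAMP1, the major glycoprotein of the lysosomal membrane and a carrier of 2 CLEAR cores above, had -0.09 in GPI-PLD cells and -0.19 ± 0.09 in LacZ cells (0.228). Its relative LAMP2 had 0.08 in GPI-PLD cells and -0.11 in LacZ cells.

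**Figure D2:**
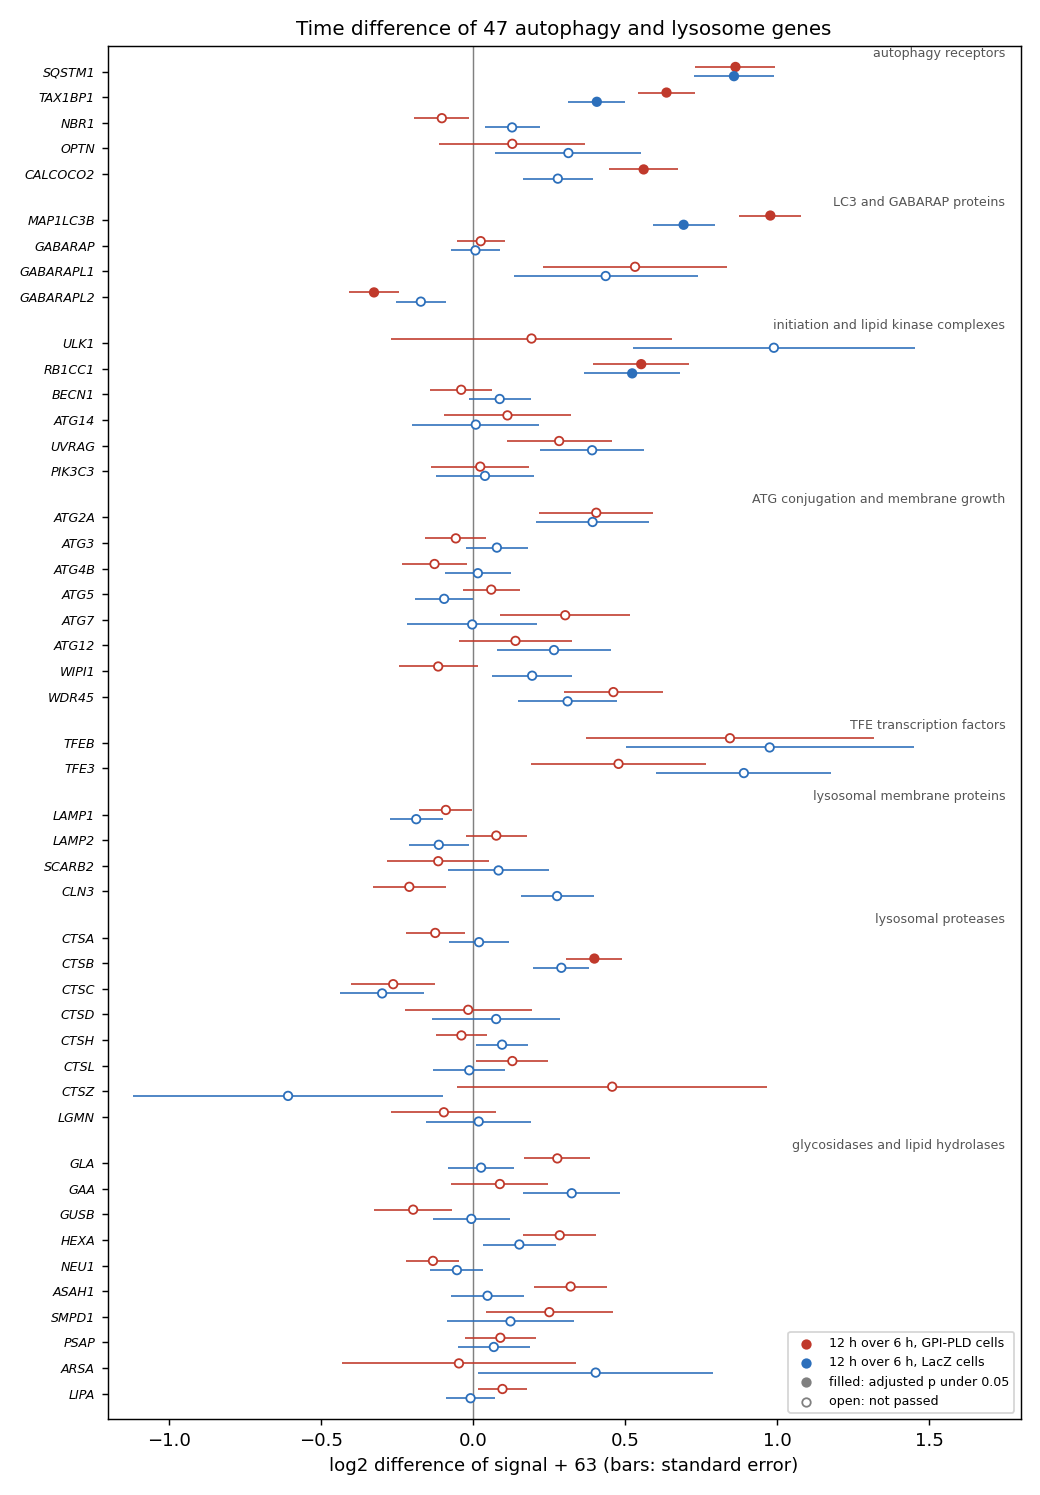
Log2 difference between 12 h and 6 h (horizontal axis, log2 of signal + 63, bars are standard errors) for the 47 tested members grouped by role, with GPI-PLD cells above LacZ cells in each row. Filled points passed an adjusted p of 0.05. The 7 filled genes in GPI-PLD cells comprise 3 receptors, 2 LC3 and GABARAP proteins, RB1CC1 and CTSB.

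Over all tested members, 30 of 47 were higher and 17 lower at 12 h in GPI-PLD cells. The median of their log2 differences was 0.10, where 51.6% of all genes were higher with a median of 0.01. In LacZ cells 36 were higher and 11 lower (76.6%) with a median of 0.09, where 50.6% of all genes were higher with a median of 0.00. The count in LacZ cells moved with scaling: with arrays scaled to their 75th percentile 28 members were higher and 19 lower (59.6%), with a median of 0.04, while 43.9% of all genes were higher with a median of -0.04. Under that scaling 243 genes were called higher and 391 lower in LacZ cells, against 295 and 264 on the deposited scale. At an unadjusted limma p under 0.05, 12 of 47 members (25.5%) differed in GPI-PLD cells, where 22.8% of all genes did, and 14 of 47 (29.8%) in LacZ cells, where 20.2% did. These differences between members and all genes are descriptions.

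**Figure D3:**
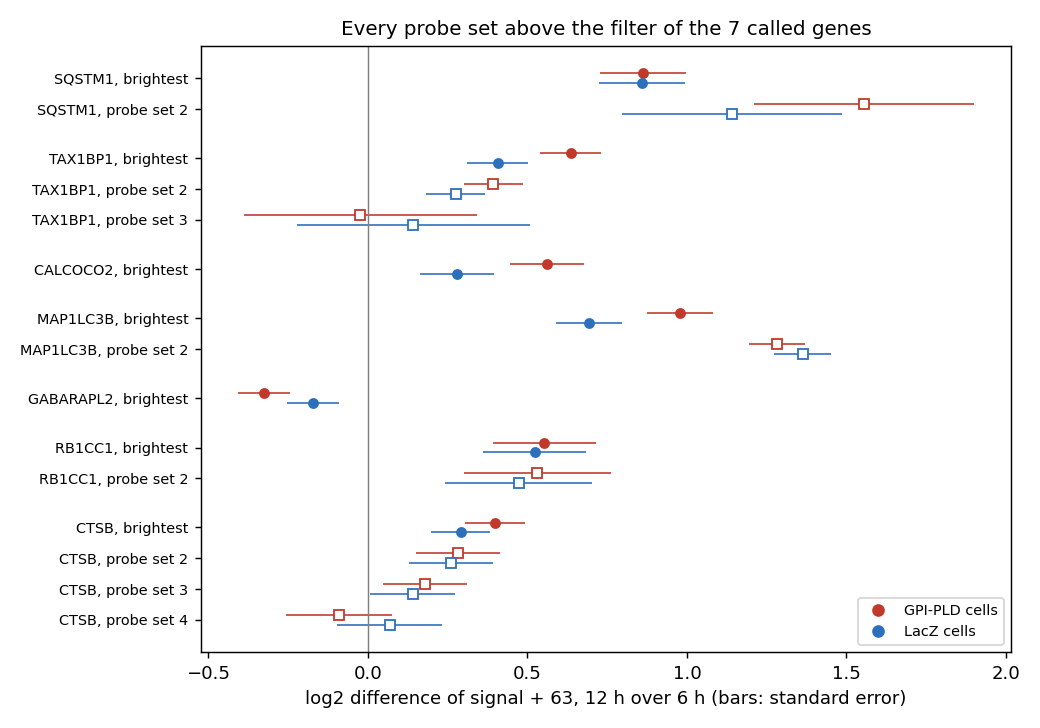
Log2 difference between 12 h and 6 h (horizontal axis, log2 of signal + 63, bars are standard errors) at each probe set above the filter for the 7 called genes, with filled circles for the brightest set used above and open squares for the others. Both MAP1LC3B sets and both SQSTM1 sets lie above 0, while 1 set of TAX1BP1 and 1 of CTSB lie near 0.

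The second question was whether GPI-PLD virus changed these genes relative to LacZ virus. No member passed at either time. GPLD1 itself, on its brightest probe set, showed no rise beyond its error with GPI-PLD virus, as given above. The 3 members with the smallest p at 12 h were the receptors NBR1 and TAX1BP1 and the LC3 protein MAP1LC3B, and at 6 h they were GAA, CLN3 and LIPA. Limma called 0 of 47 members at 12 h, at 6 h and averaged over the times, where it called 0% of all tested genes in each, and 0 members were called by eBayes without trend and robust variance. At an unadjusted p under 0.05 the member counts were 2 at 12 h (4.26%, with 7.2% of all genes), 2 at 6 h (4.26%, with 4.62%) and 3 averaged (6.38%, with 4.18%). Of the 47 members, 24 were higher and 23 lower at 12 h and 25 were higher and 22 lower at 6 h, with median log2 differences of 0.01 at both times.

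For most members the spread among these arrays was small enough to bound a difference on the probe set used. That spread may be technical, and the intervals were not adjusted for the number of genes. They do not cover differences between the probe sets of a gene. The 95% interval of the log2 difference stayed within 1.5-fold in either direction for 37 members at 12 h and 39 at 6 h. The median half-width was 0.264 log2, a factor of 1.2, and the narrowest was 0.164 for LIPA. The widest was 1.05 for CTSZ, a carboxypeptidase with a dim probe set. ULK1, GABARAPL1, TFEB, TFE3, ATG2A, ARSA and CTSZ had intervals past 1.5-fold at both times, as did GAA at 6 h and OPTN, ATG7 and SMPD1 at 12 h. For these genes the data do not bound the difference within 1.5-fold.

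**Figure D4:**
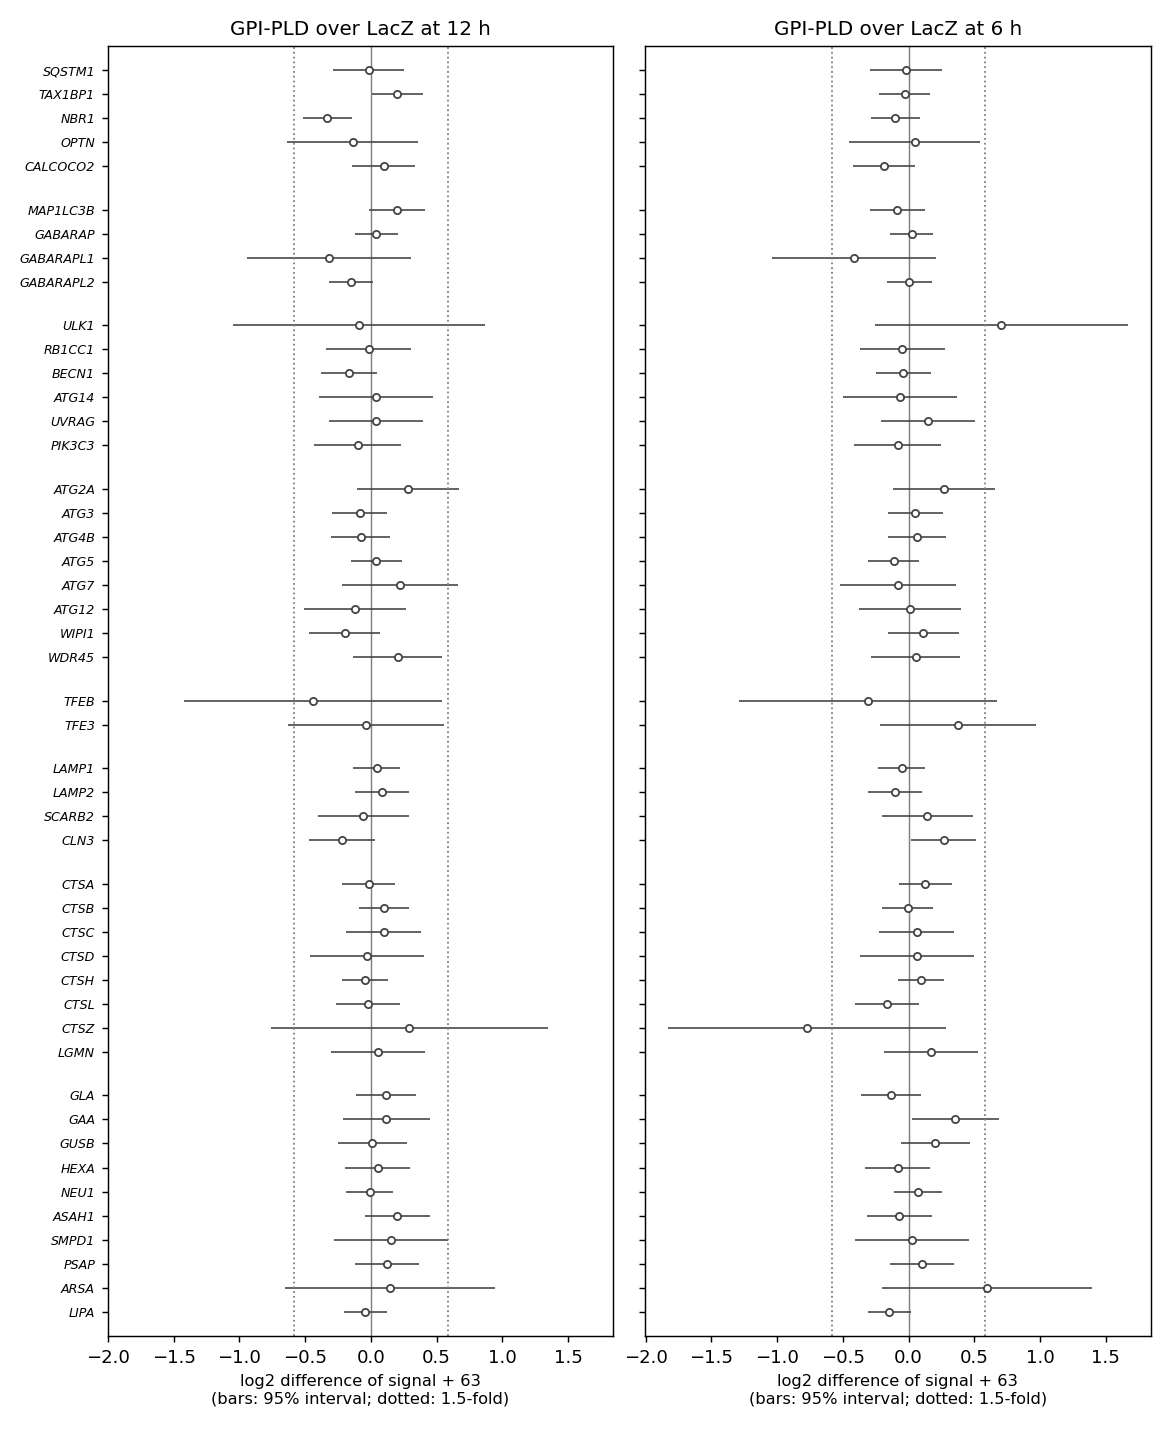
Log2 difference of GPI-PLD over LacZ cells (horizontal axis, log2 of signal + 63, bars are 95% intervals) for the 47 tested members at 12 h on the left and 6 h on the right, with dotted lines at 1.5-fold. None passed an adjusted p of 0.05, and 37 intervals at 12 h and 39 at 6 h lie within the lines.

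NBR1, a receptor related to SQSTM1, had the smallest p of any member between viruses. At 12 h its signal was 2857, 2604, 2762.5 and 2441 in GPI-PLD cells, against 3519, 3637, 3153 and 3173 in LacZ cells. At 6 h it was 2588, 2937, 2916 and 3022 in GPI-PLD cells, against 3179.6, 2835, 3263.5 and 3022 in LacZ cells. The viruses did not overlap at 12 h and overlapped at 6 h. The log2 difference was -0.33 ± 0.09 at 12 h (95% interval -0.52 to -0.14), with a limma p of 0.00135 and an adjusted p of 0.413, and -0.10 ± 0.09 at 6 h (adjusted p 0.998). Averaged over the times it was -0.22 ± 0.06 (unadjusted p 0.00272, adjusted p 0.998). A second NBR1 probe set gave -0.16 at 12 h and -0.31 at 6 h.

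MAP1LC3B and TAX1BP1, whose values on every array are given above, had log2 differences of 0.20 ± 0.10 and 0.20 ± 0.09 at 12 h, with limma adjusted p of 0.705 and 0.686. At 6 h the same genes had -0.09 and -0.03. With its probe sets averaged TAX1BP1 had 0.02 at 12 h, with an adjusted p of 0.988 in a range from 0.555 over the 25 alternatives. A second MAP1LC3B probe set gave 0.07 at 12 h and 0.15 at 6 h. GAA signal at 12 h was 999, 1409, 997 and 1115.5 in GPI-PLD cells, against 958, 881, 1006.5 and 1297 in LacZ cells. At 6 h GAA was 931, 1263, 1198 and 854 in GPI-PLD cells, against 948, 709.5, 887 and 704 in LacZ cells. The arrays overlapped at both times, and the log2 difference at 6 h was 0.36 ± 0.16 (unadjusted p 0.0361, limma adjusted p 0.998). LIPA read 5493, 5551, 6206 and 5352 in GPI-PLD cells and 5980.1, 6159, 5482 and 5618 in LacZ cells at 12 h. At 6 h LIPA read 5670.4, 5092, 4866 and 5486 in GPI-PLD cells and 6221, 5710.1, 5627 and 5795 in LacZ cells. The arrays of LIPA overlapped at both times, and its log2 difference at 6 h was -0.15 ± 0.08 (adjusted p 0.998). ATG2A, which moves lipid into the growing sac, had 1489, 994, 963 and 1403 in GPI-PLD cells against 997, 1156, 652 and 1157.5 in LacZ cells at 12 h. At 6 h it had 1125, 931, 919.5 and 628 in GPI-PLD cells against 761.5, 673, 732 and 722 in LacZ cells. ATG2A overlapped at both times, and its averaged log2 difference was 0.28 ± 0.13 (adjusted p 0.998).

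The third question was whether the virus difference changed with time. Limma called 0 of 47 members, where it called 0.0123% of all tested genes, and 1 member (2.13%) had an unadjusted p under 0.05, where 7.58% of all genes did. EBayes without trend and robust variance called 0 as well. The member at an unadjusted p under 0.05 was CLN3, a lysosomal membrane protein whose loss causes a childhood neuronal storage disease. CLN3 signal at 12 h was 1243, 1326, 1408 and 1610.3 in GPI-PLD cells, against 1507, 1799.5, 1619.7 and 1605.5 in LacZ cells. At 6 h it was 1579, 1632, 1813 and 1462 in GPI-PLD cells, against 1334, 1235, 1633 and 1176 in LacZ cells. The arrays overlapped at both times, with log2 differences of -0.22 ± 0.12 at 12 h and 0.27 ± 0.12 at 6 h. The change of the difference was -0.49 ± 0.17, with an unadjusted p of 0.00889 and a limma adjusted p of 0.463. A second CLN3 probe set gave 0.00 at 12 h and 0.14 at 6 h. MAP1LC3B followed with 0.28 ± 0.14 (0.67) and NBR1 with -0.23 ± 0.13 (0.71). The second probe set turned the direction of both, with -0.08 ± 0.13 for MAP1LC3B and 0.15 ± 0.24 for NBR1. With probe sets averaged the values were 0.10 for MAP1LC3B and -0.04 for NBR1.

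Other genes of the pathway came from a list of 130 autophagy and lysosome genes outside the 50, of which 107 had a probe set and 97 were tested. With time, limma called 8 of 97 (8.25%) in GPI-PLD cells, 5 higher and 3 lower, where it called 9.64% of all genes. In LacZ cells it called 5 of 97 (5.15%), 3 higher and 2 lower, where it called 6.89%. SH3GLB1, a membrane-bending protein that binds the BECN1 complex, averaged 7957 ± 749.5 at 12 h against 5449.6 ± 537 at 6 h in GPI-PLD cells, and 6721 ± 556 against 5347 ± 662 in LacZ cells (SD, n = 4 each). It rose by 0.54 ± 0.10 log2 in GPI-PLD cells (limma adjusted p 0.000648) and by 0.33 ± 0.10 in LacZ cells (0.0413), with no overlap of the times. TMEM41B, a lipid scramblase needed for sac growth, rose by 0.45 ± 0.11 in GPI-PLD cells (0.0102) and by 0.41 ± 0.11 in LacZ cells (0.0262), also with no overlap.

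Several of these genes passed in GPI-PLD cells. ATP6V1C1, a subunit of the proton pump that acidifies lysosomes, rose by 0.44 ± 0.12 (limma adjusted p 0.0171). PCYOX1, a lysosomal prenylcysteine oxidase, fell by 0.85 ± 0.19 on the log2 scale (0.00542), and PIK3R4, the regulatory subunit of the lipid kinase, fell by 0.49 ± 0.14 (0.0227). The other 3 calls there, added after their values were seen to complete the count of 8, were the pump subunit ATP6V0A2 (0.60 ± 0.17, 0.0252), the cholesterol exporter NPC1 (0.35 ± 0.11, 0.0396) and the folate hydrolase GGH (-0.37 ± 0.11, 0.0418). In LacZ cells BCL2L1, an inhibitor of cell death that binds BECN1, rose by 0.68 ± 0.15 (0.0067). VAMP8, the SNARE that fuses the sac with the lysosome, fell by 0.41 ± 0.09 (0.00717), and GM2A, an activator of ganglioside breakdown, fell by 0.46 ± 0.12 (0.0224). Between viruses 0 of 97 were called at 12 h, at 6 h, averaged or in the difference, by limma with or without trend and robust variance, where 0%, 0%, 0% and 0.0123% of all genes were called. At an unadjusted p under 0.05 the counts were 9, 4, 2 and 9 of 97, where 7.2%, 4.62%, 4.18% and 7.58% of all genes were. BCL2L1 had a log2 difference of -0.50 ± 0.15 at 12 h (0.482) and a change of the difference of -0.82 ± 0.22 (0.381). RHEB, the small GTPase that activates mTORC1 at the lysosome, had -0.27 ± 0.08 at 6 h (0.836), and the sorting subunit VPS33A had 0.75 ± 0.24 at 12 h (0.5). PCYOX1 had 0.47 ± 0.19 at 6 h (0.998), and RHEB had a change of the difference of 0.43 ± 0.12 (0.381). Averaged over the times, the kinase TBK1 had -0.19 ± 0.08 and the pump subunit ATP6V1D had -0.22 ± 0.09, both with adjusted p of 0.998. The time counts fell to 4 in GPI-PLD cells without GPI-PLD 6 h replicate 2 or 3. They fell to 2 in LacZ cells without replicate 2 or 3 of LacZ at 12 h, or without replicate 4 of LacZ at 6 h. Those counts are given without the share of all genes called in the same fits. The calls of SH3GLB1, TMEM41B and PCYOX1 in GPI-PLD cells and of VAMP8 and BCL2L1 in LacZ cells held in all alternatives run.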

How the data were processed

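The 16 arrays measured total RNA of HepG2 cells with GPI-PLD or LacZ adenovirus for 6 h or 12 h. The authors deposited MAS5 signals, an intensity on a linear scale, per the submitters' processing notes. The sources used here name no other step. Trimmed by 2%, the mean of each array lay between 1000.3 and 1000.4, so the authors deposited values already on a common scale. The medians of the arrays differed by a ratio of at most 1.24, under the limit of 1.5 set for rescaling, so no further scaling was applied. All values were present and above 0, and 0 pairs of arrays were identical. The number of arrays, 4 per group, limits the precision. Replicates were numbered in deposited order, which pairs nothing.

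A pseudocount of 63, the 20th percentile of all signals, was added before log2 was taken. Folds are on this scale and understate the change of dim genes. Each gene was read by its brightest probe set with 1 symbol and was tested where that set averaged at least 208, the 40th percentile over probe sets. Of the probe sets, 68 were controls, 1043 had several symbols and 2107 had none, and these were not used for genes. Over 8109 genes, limma 3.58.1 (R 4.3.3, statmod 1.5.0) was run with lmFit, contrasts.fit and eBayes (trend and robust) on all 4 groups together. Residual degrees of freedom were 12, and the prior added a median of 10.6. There were 6 contrasts: the virus difference at 12 h, at 6 h and averaged, its change with time, and the time difference under each virus. A call required p under 0.05 after Benjamini-Hochberg adjustment over the genes of 1 contrast. Other probe sets were read from a fit of all 22215 outside the controls, adjusted over them. Errors after log2 values are standard errors, and those after signals are standard deviations.

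The members, lists and naming rule were chosen with earlier results of these data known. By that rule, members called in any contrast and the 3 with the smallest p in each virus contrast are described on every array. The brightest and dimmest tested members of each role group fall under it too and are named without comparing levels between probe sets. These are TAX1BP1 and OPTN, MAP1LC3B and GABARAPL1, BECN1 and ULK1, ATG5 and ATG7, TFE3 and TFEB, LAMP1 and SCARB2, CTSA and CTSZ, and ASAH1 and ARSA. In the list of other genes the rule takes the 5 smallest p in each time contrast and the 2 smallest in each virus contrast. Further members were named for their role or nearness to the threshold after their values were seen.

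The settings tried instead were quantile normalization, 75th percentile scaling, a pseudocount of 0 or 4 times as large, and a filter removed or raised to the 60th percentile. A gene's probe sets were also averaged, eBayes was run plain, the fit was limited to the arrays of a contrast, and single arrays were omitted. For the list of other genes these were added after seeing the data. On simulated data for 12 h over 6 h in LacZ cells with 8109 genes, the steps recovered 43.3% of 67 changes of 1.5-fold, 68.7% of 67 of 2-fold and 86.4% of 66 of 3-fold, with 2 false calls. The simulated noise was normal and drawn independently for each gene, and no gene beyond those listed was changed. Noise shared between genes on an array was not simulated, so these rates may not hold for the real data. Promoters were read from RefSeq tables on GRCh38.p14. Tables and plots used Python 3.11.15, pandas 2.3.3 and matplotlib 3.10.9.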

Additional observations from a re-analysis of the deposited data

How the results depend on the processing

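No call of a member in the time comparisons changed direction in the 25 alternatives. With probe sets averaged per gene, 2 members instead of 4 were called with time in LacZ cells (SQSTM1 and MAP1LC3B), and 3 other genes were called in LacZ cells instead of 5 and 3 in GPI-PLD cells instead of 8. EBayes without trend and robust variance called 3 other genes in LacZ cells. With each array left out in turn, members called ranged from 6 to 9 in GPI-PLD cells and from 3 to 5 in LacZ cells. The highest counts came without GPI-PLD 12 h replicate 1, which added GLA and ASAH1, and without LacZ 6 h replicate 1, which added TFE3. Other genes called ranged from 4 to 10 in GPI-PLD cells, lowest without GPI-PLD 6 h replicate 2 or 3, and from 2 to 6 in LacZ cells, lowest without LacZ 6 h replicate 4 or LacZ 12 h replicate 2 or 3. In the change of the virus difference they ranged from 0 to 1, the 1 being BCL2L1 without LacZ 6 h replicate 1. Members called between viruses or in that change stayed at 0 in all alternatives run. The calls of SQSTM1 and MAP1LC3B in both viruses, and of CALCOCO2 in GPI-PLD cells, held in all 25 alternatives. The share of all tested genes called in each setting is not set beside these counts. A change in them may thus not be particular to the members or the other genes. The cause of the lost calls was not tested. No paired analysis was possible because the labels carry no replicate numbers. Dim probe sets such as those of TFEB, ULK1 and CTSZ limit what can be said of those genes.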
